A study of Limodorum abortivum with 6 samples.

Results

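The genes described here encode parts of the protein synthesis machinery in the roots of *Limodorum abortivum*, an orchid that feeds partly by photosynthesis and partly through its fungal partners. They are the plant genes whose UniProt description names a ribosomal protein, a tRNA ligase, an elongation factor or a translation initiation factor, without a word for an organelle, a kinase, a transcription factor or a transporter. Only the readable rows of the study's table of plant genes, its first part, pair an assembled gene with a description. The rest of that table, which holds most of the plant genes that the study tested, could not be searched. Of the 1159 genes in the readable rows (listed plant genes below), 11 met the rule. All 11 were found in the count files, which hold 100005 assembled genes. Of these 11 genes, 0 had a description that names an elongation factor. Genes that the rule left out, such as those for organelles, and the rest of the table were not searched for them. The 11 genes came from 6 Trinity genes, that is, from 6 clusters of related contigs in the *de novo* assembly, and 9 of them shared a Trinity gene with another member. Genes of the same Trinity gene may share reads in the counting and are not independent observations. Their sequences were not compared here.

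RNA was extracted from root segments of adult plants collected in nature at a single site in Piedmont. Mycorrhizal roots (LM), which were recognised as thicker and darker and checked in fresh sections, gave 3 libraries (LM3, LM4, LM6), and non-mycorrhizal roots (LS) of the same site gave 3 (LS2, LS3, LS6). Root segments of different individuals were ground, and the sources do not say how many plants went into a library, so that p-values measure the spread between these libraries. The LS roots were not sterile, and both groups carried other soil microorganisms. Neither the age nor the genotype of the plants is given.

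Translation starts when initiation factors bring the small (40S) ribosomal subunit, the initiator tRNA and the mRNA together, after which the large (60S) subunit joins. Aminoacyl-tRNA ligases load each tRNA with its amino acid, and the ribosome links the amino acids into protein. Besides these cytosolic ribosomes, plant cells hold ribosomes of bacterial type in plastids and mitochondria, most of whose proteins are encoded in the nucleus. Roots that host coiled hyphae remodel their cells, and genes for the translation machinery are widely expressed in growing tissue.

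Only 4 of the 11 genes had a cytosolic 40S or 60S description, the pairs for S29 and L22. Another 3 were the pair for subunit F of initiation factor eIF3 and a cytoplasmic glutamate-tRNA ligase. The other 4 were described as 50S ribosomal proteins, 1 as L24 and 3 as L4, after bacterial UniProt entries. Their taxon was *Dendrobium* or *Phalaenopsis*, both orchids, in the plant table. The 50S subunit belongs to ribosomes of bacterial type, which in plant cells are those of plastids and mitochondria, but their descriptions name no organelle. The rule therefore kept them, and the medians and counts of members below pool them with cytosolic genes. Other genes described as chloroplastic L24 or L4 are among the organelle ribosomal proteins treated further below. In all, 7 of the 11 genes had an orchid taxon, while the S29 and L22 genes were assigned to *Genlisea aurea* (MSTRG.1106), *Glycine max* (MSTRG.1714) or only to the flowering plant clade Mesangiospermae, which includes orchids (MSTRG.1107 and MSTRG.1712).

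The sum of gene counts ranged from 4748078 to 6019195 per library, of which the 11 genes together took 0.0324% (LS2) to 0.0817% (LM6). The scale is CPM, the count per 1000000 reads on plant transcripts after edgeR's TMM correction. Values in CPM are not corrected for gene length, so levels are compared between libraries and never between genes. In libraries made from root segments, which hold several cell types, a smaller number of cells of a type and less RNA per cell cannot be told apart. For every 100 reads counted on a gene, the files hold 12.1 to 13.3 reads in LM and 24.2 to 41.4 in LS that overlapped several genes and were not counted. The part of this difference in the results below was not tested. The tissue label was not checked against root genes, since no list of them was set. Of 7 genes for photosystem, antenna and cytochrome b6-f proteins, the summed level was 11.8 to 15.4 CPM in LM and 34.4 to 47.5 CPM in LS, and a chlorophyll a-b binding protein was counted 0, 0 and 1 times in the LM libraries and 69 (LS2), 0 and 1 times in the LS libraries. Their part in the results was not tested.

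Of the 11 genes, 7 passed edgeR's filter on low counts. LM was compared with LS in these 7 and in all other listed plant genes that passed (719 tested), by edgeR's quasi-likelihood test with Benjamini-Hochberg adjustment over all of them. At an adjusted p under 0.05 the test called 0 of the 7, where it called 0 of all 719 (0%). At an unadjusted p under 0.05 it found 0 of the 7, against 113 of the 719 (15.7%). The likelihood ratio test of edgeR, limma-voom and DESeq2 also called 0 of the members. Of the 1137 listed plant genes for which DESeq2 gave an unadjusted p, it called 6.51%. The log2 fold change (log2 FC, LM over LS) of the 7 genes ran from -0.13 to 0.74 with a median of 0.19, and 5 were higher and 2 lower in LM. Leaving out single libraries gave medians from -0.086 (without LS2, 7 members tested) to 0.42 (without LM3, 8 members tested). Without LM3 the gene MSTRG.1106 also passed the filter and is part of that median. Over all 719 genes the log2 FC ran from -6.64 to 9.42 with a median of -0.014, and 48.7% were higher in LM. The median size of the change without regard to sign was 0.19 on the log2 scale for the 7 genes and 0.49 for the 719. None of the 7 genes had LM libraries that lay apart from all LS libraries, which was the case for 24.5% of the 719 genes.

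**Figure D1:**
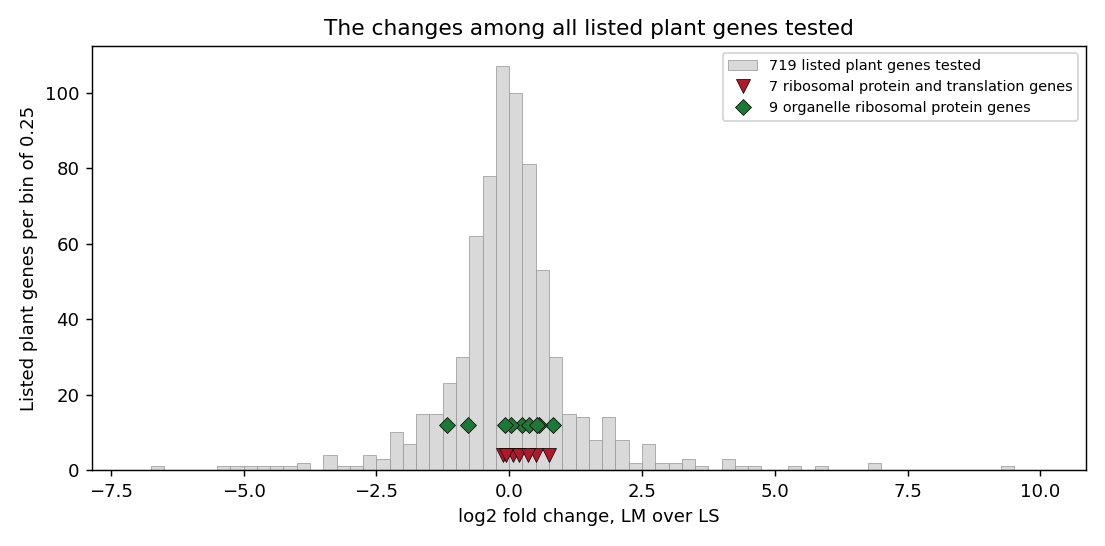
Histogram of the log2 fold change of LM over LS (x axis) for the 719 listed plant genes tested, with the number of genes per bin on the y axis. The triangles mark the 7 ribosomal protein and translation genes, which lie between -0.13 and 0.74, and the diamonds the 9 organelle ribosomal protein genes tested; the height of the symbols carries no value.

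S29 is a small zinc-binding protein of the 40S subunit. The main S29 gene (MSTRG.1107) had 110 CPM in LM3, 223 in LM4 and 171 in LM6. It had 91.8 CPM in LS2, 136 in LS3 and 126 in LS6. LM4 and LM6 were above all LS libraries, while LM3 fell between LS2 and LS6. Group means were 168 ± 56.3 CPM for LM and 118 ± 23.1 CPM for LS (SD, n = 3 each). On the log2 scale LM over LS came to 0.51 (SE 0.32, edgeR adjusted p = 0.457), with a 95% confidence interval from -0.27 to 1.298.

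The second S29 gene (MSTRG.1106) was rare, with 8, 9 and 17 counts for LM3, LM4 and LM6 and 3, 5 and 6 for LS2, LS3 and LS6. It did not pass the filter. In CPM it had 1.81, 2.27 and 3.64 in LM and 0.648, 1.06 and 1.58 in LS, so that the groups did not overlap. The share of 24.5% without overlap given above covers only genes that passed the filter. For rarer genes no such share was taken. Without the filter on low counts, its log2 FC was 1.28 (adjusted p = 0.368 from edgeR).

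L22 is an RNA-binding protein of the 60S subunit that bacteria lack. Its main gene (MSTRG.1714) had 116 CPM in LM3, 205 in LM4 and 167 in LM6, and 59.6 CPM in LS2, 104 in LS3 and 127 in LS6. Here too LM3 lay among the LS libraries, below LS6. Group means were 163 ± 44.4 CPM for LM and 97.0 ± 34.4 CPM for LS (SD, n = 3 each), and the log2 FC of 0.74 was the largest of the 7 genes tested (SE 0.36, 95% confidence interval -0.15 to 1.64, adjusted p = 0.366 from edgeR).

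The second L22 gene (MSTRG.1712) was nearly confined to 1 library. It had 721 counts in LM6, against 6 in LM3 and 7 in LM4, and 1, 3 and 4 counts in LS2, LS3 and LS6. In CPM this was 154 in LM6 and 0.216 to 1.76 in the other 5 libraries. LM3 (1.36 CPM) and LM4 (1.76 CPM) also lay above all LS libraries, so that the groups of this gene did not overlap either. Of the CPM summed over the 6 libraries, LM6 held 96.8%. The gene did not pass the filter, and its group mean of 52.5 ± 88.2 CPM (SD, n = 3) in LM describes no library. Without the filter its log2 FC was 6.41 (adjusted p = 0.297 from edgeR), while DESeq2 gave no p for it.

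**Figure D2:**
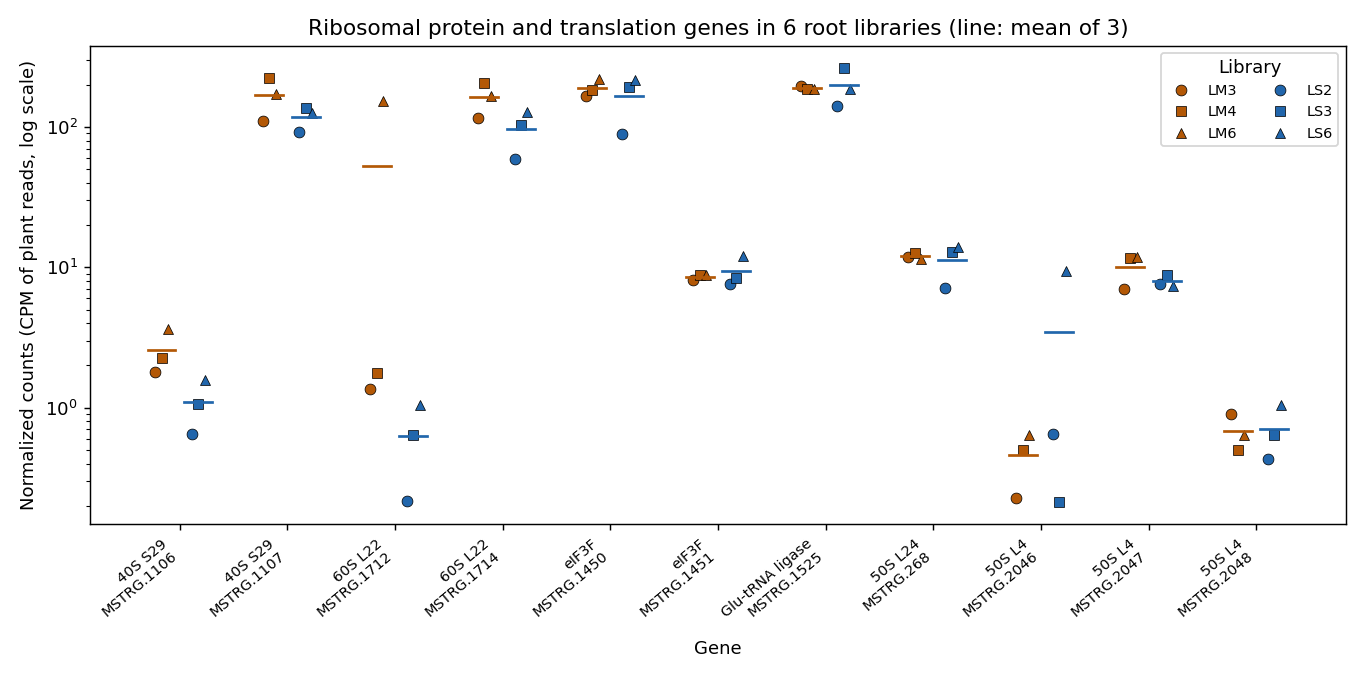
Normalized counts (CPM of plant reads, log axis) of the 11 genes in each library, with mycorrhizal libraries (LM) in orange, non-mycorrhizal libraries (LS) in blue and a line at each group's mean of 3 libraries. MSTRG.1712 reached 154 CPM in LM6 and at most 1.76 CPM elsewhere, and for the 7 genes tested the points of LM and LS overlap.

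Subunit F belongs to eIF3, the largest initiation factor, which helps to assemble the 40S subunit with the initiator tRNA. Its main gene (MSTRG.1450) had 165, 183 and 221 CPM in LM3, LM4 and LM6 and 89.0, 192 and 217 CPM in LS2, LS3 and LS6. LS2 was far below the other 5 libraries, and LS3 and LS6 lay within the range of LM. The log2 FC was 0.19 (SE 0.37, 95% confidence interval -0.71 to 1.10, adjusted p = 0.813 from edgeR), and it turned to -0.086 without LS2. The second gene (MSTRG.1451) had 8.15, 8.82 and 8.77 CPM in LM and 7.56, 8.47 and 12.1 CPM in LS. Its log2 FC was -0.13 (SE 0.31, 95% confidence interval -0.88 to 0.63, adjusted p = 0.869 from edgeR), and 0.072 without LS6.

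Glutamate-tRNA ligase joins glutamate to its tRNA. The gene (MSTRG.1525) had 195, 186 and 187 CPM in LM3, LM4 and LM6, a coefficient of variation of 2.52%. In LS2, LS3 and LS6 it had 142, 265 and 188 CPM, a coefficient of variation of 31.2%. All LM libraries fell between LS2 and LS3. LM over LS came to -0.064 on the log2 scale (SE 0.27, edgeR adjusted p = 0.920), with a 95% confidence interval from -0.73 to 0.60. On the linear scale this interval reaches from 0.604 to 1.52 times the LS level, the narrowest of the 7 genes. Without LS3 the log2 FC was 0.18.

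In bacteria L24 takes part in the first steps of building the large subunit, and L4 reaches into the tunnel through which the new protein leaves. The L24 gene (MSTRG.268) had 11.8, 12.6 and 11.6 CPM in LM and 7.13, 12.9 and 13.9 CPM in LS2, LS3 and LS6. LS2 was again the lowest library. The log2 FC was 0.081 (SE 0.34, 95% confidence interval -0.75 to 0.915, adjusted p = 0.920 from edgeR), and -0.14 without LS2.

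Of the 3 genes for L4, MSTRG.2047 passed the filter, with 7.01, 11.6 and 11.8 CPM in LM and 7.56, 8.89 and 7.36 CPM in LS. LM4 and LM6 were above all LS libraries, and LM3 was the lowest library of all. Its log2 FC was 0.35 (SE 0.33, 95% confidence interval -0.46 to 1.16, adjusted p = 0.625 from edgeR). MSTRG.2048 had 2 to 4 counts in every library. MSTRG.2046 had 1 to 3 counts in 5 libraries and 36 counts in LS6, which held 80.9% of its CPM summed over the libraries. Without the filter on low counts the log2 FC was -2.76 for MSTRG.2046 (adjusted p = 0.422 from edgeR) and 0.025 for MSTRG.2048 (adjusted p = 0.987).

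**Figure D3:**
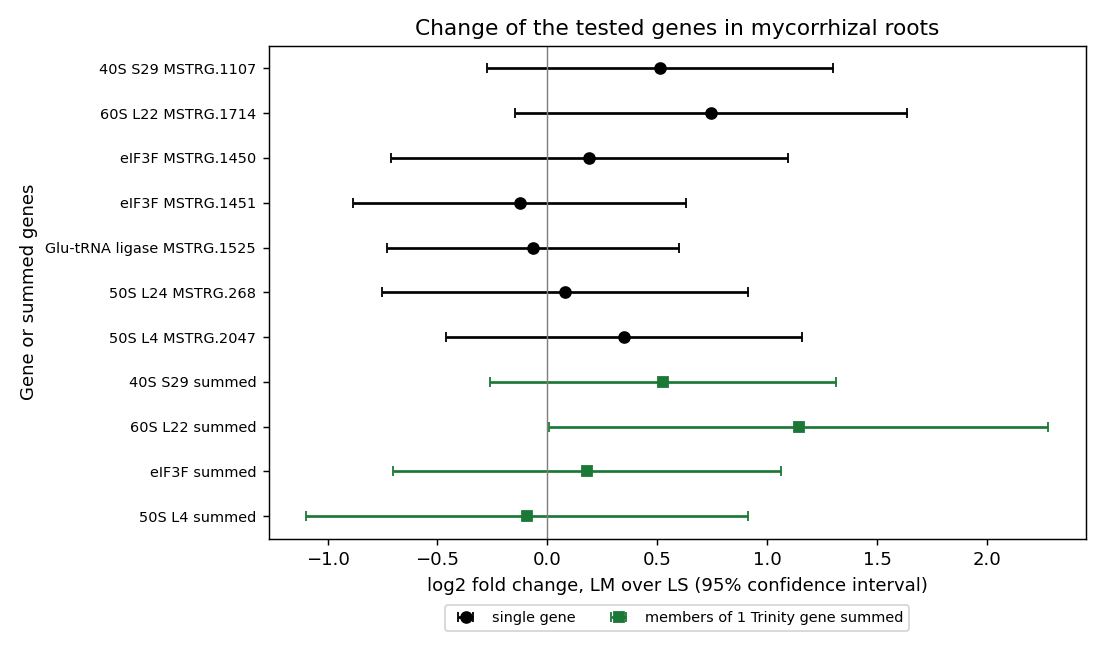
Log2 fold change of LM over LS (x axis) with its 95% confidence interval for the 7 genes tested singly (circles) and for the 4 Trinity genes with several members after their counts were summed (squares). Every interval of a single gene includes 0, and the interval of the summed L22 genes runs from 0.0091 to 2.28.

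Since reads of a Trinity gene may be divided between its members, the counts of all listed plant genes were also summed by Trinity gene, and 650 sums were tested in the same way. The test called 0 of the 6 sums that hold the members, as it called 0 of all 650 (0%). At an unadjusted p under 0.05 it found 1 of the 6, the L22 genes, against 16.2% of the 650. Of the 6 sums, 4 were higher in LM (49.2% of the 650), and 0 had groups that did not overlap (25.1% of the 650). L22 summed to 117, 207 and 322 CPM in LM3, LM4 and LM6 and to 59.5, 104 and 129 CPM in LS2, LS3 and LS6. LM4 and LM6 exceeded all LS libraries, and LM3 did not exceed LS6. The log2 FC of the sum was 1.14 (SE 0.46, edgeR adjusted p = 0.302). It was 0.75 without LM6, the library with the second L22 gene, and 0.75 to 1.44 with each library left out in turn. S29 summed to a log2 FC of 0.53 (95% confidence interval -0.26 to 1.32) and eIF3F to 0.18 (-0.70 to 1.06). L4 summed to -0.093 (-1.10 to 0.91), so that the higher value of MSTRG.2047 in LM was not seen in the sum, and without LS6 the sum was at 0.29.

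The way in which the counts of a Trinity gene were divided was similar in most libraries. MSTRG.1106 took 0.701% to 2.08% of the S29 counts, and MSTRG.1451 took 3.82% to 7.83% of the eIF3F counts, highest in LS2. MSTRG.1712 took 48.0% of the L22 counts in LM6 (95% Wilson interval 45.5% to 50.6%, of 1501 counts) and 0.361% to 1.16% in the other 5 libraries. In LM6 the main L22 gene, at 167 CPM, still lay between its levels in LM3 and LM4. Whether reads were divided between the L22 genes in the counting was not tested. For L4 the division was unlike the others in LS6, where MSTRG.2046 took 52.9% (41.2% to 64.3%, of 68 counts) and MSTRG.2047 41.2% (30.3% to 53.0%). In the other 5 libraries MSTRG.2046 took 2.17% to 7.50% and MSTRG.2047 86.1% to 92.0%. There MSTRG.2047 had 7.36 CPM in LS6, within the range of the other libraries. These intervals cover counting error only. The mean shares of LM and LS were compared for 6 shares by exact permutation tests (two-sided), which gave p from 0.1, the smallest p that 3 libraries against 3 allow, to 1.0, and adjusted p from 0.6 to 1.0. The smallest p was that of MSTRG.1712, whose mean share of the L22 counts was 16.7% ± 27.2 for LM and 0.595% ± 0.229 for LS (SD, n = 3 each). Its difference of 16.1 percentage points was 0.410 without LM6.

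**Figure D4:**
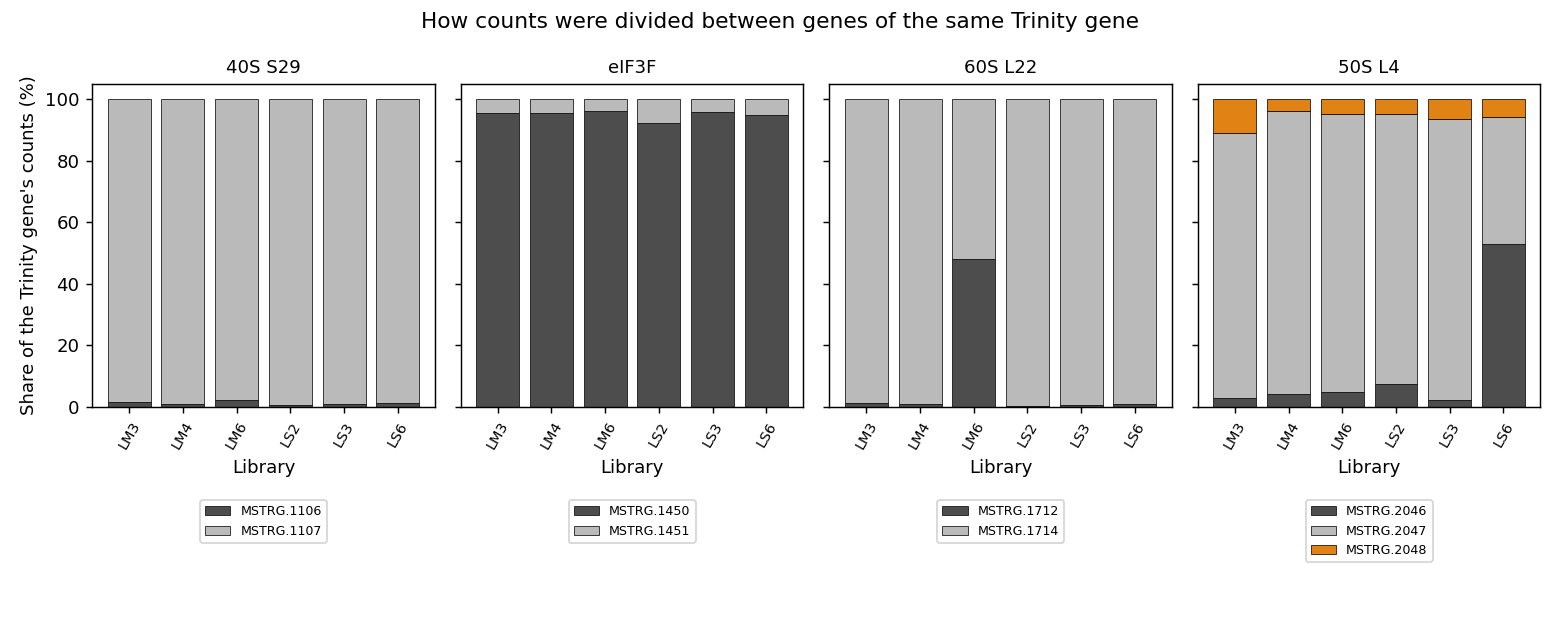
Share of the counts of a Trinity gene (y axis, %) taken by each of its member genes in the 6 libraries, for the 4 Trinity genes with several members. The second L22 gene (MSTRG.1712) took 48.0% in LM6 and at most 1.16% elsewhere, and an L4 gene (MSTRG.2046) took 52.9% in LS6 and at most 7.50% elsewhere.

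The libraries differed from each other within their group. LS2 was the lowest of the 6 libraries for 9 of the 11 genes, and for 6 of the 7 genes tested, where it was the lowest for 23.8% of the 719 listed plant genes tested and the highest for 24.2%. Of the 5 genes that were higher in LM, 3 remained higher without LS2. The summed level of the 11 genes without MSTRG.1712 was 617, 833 and 783 CPM in LM3, LM4 and LM6 and 407, 729 and 703 CPM in LS2, LS3 and LS6, so that LM3 was below LS3 and LS6. The coefficient of variation of the 7 genes tested had a median of 15.01% in LM and 31.2% in LS, and over all 719 genes the medians were 30.5% and 32.2%.

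Some of the small changes had the other sign in a fit that also held genes of fungi. When all genes of the count files were fitted (22268 tested), scaled by the sum of gene counts with TMM factors, 3 of the 7 genes were higher in LM, where 47.2% of all genes were, and the median log2 FC was -0.045. There edgeR called 0 of the 7, against 688 of the 22268 genes (3.09%), and 0 of the 7 had an unadjusted p under 0.05, against 26% of all genes. The adjusted p of the 7 ran from 0.490 to 0.959. S29 (MSTRG.1107, log2 FC 0.27), L22 (MSTRG.1714, 0.50) and L4 (MSTRG.2047, 0.11) stayed higher in LM. The eIF3F gene MSTRG.1450 (-0.045) and the L24 gene MSTRG.268 (-0.16) changed sign. This fit differed from that of the listed plant genes in both the genes and the library sizes, since the count files hold plant and other genes. In the study's read totals, every LM library had more reads on fungal transcripts than any LS library. The part of these reads in the changed signs was not tested. With the sum of gene counts and TMM factors in a fit of the listed plant genes alone, all 7 members kept their direction.

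Ribosomal proteins described as chloroplastic or mitochondrial make up another 10 listed plant genes, of 7 Trinity genes. Of these, 9 were tested, and the number with an edgeR p under 0.05 was 0 both with and without adjustment (0% and 15.7% of all listed plant genes tested). Of the 9 genes, 6 were higher and 3 lower in LM (48.7% of all were higher), with a median log2 FC of 0.24 and a median size of 0.51 without regard to sign. The median was -0.013 in the fit of all genes and 0.0998 without LM4. The largest rise in value was that of mitochondrial L11 (MSTRG.2257), whose log2 FC was 0.82 (edgeR adjusted p = 0.558), from 5, 16 and 22 counts for LM3, LM4 and LM6 against 4, 11 and 9 for LS2, LS3 and LS6. The other gene of its Trinity gene (MSTRG.2258, the same descriptions) had a log2 FC of -0.78, from 14, 10 and 16 counts for LM against 20, 39 and 12 for LS, and is named after its values were seen. The largest fall in value was that of chloroplastic S1 (MSTRG.1722), an mRNA-binding protein of the small subunit in bacteria, with a log2 FC of -1.17 (adjusted p = 0.420 from edgeR). Its counts were 342, 212 and 734 for the LM libraries and 1860, 437 and 592 for the LS libraries, so that LS2, the lowest library for most of the 11 genes above, was the highest for S1.

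Genes that make or modify ribosomal RNA and tRNA number 13 among the listed plant genes, and 7 were tested. Again edgeR called 0, and 0 had an unadjusted p under 0.05, against 15.7% of all listed plant genes tested. Of the 7 genes, 5 were higher and 2 lower in LM (48.7% of all were higher), with a median log2 FC of 0.29. The median was 0.041 in the fit of all genes and 0.044 without LS3. The highest was a subunit of the H/ACA ribonucleoprotein complex (MSTRG.1548), which guides pseudouridylation of ribosomal RNA, at 75.2 ± 15.5 CPM for LM and 50.5 ± 21.0 CPM for LS (SD, n = 3 each), whose log2 FC was 0.57 (edgeR adjusted p = 0.463). The lowest was a tRNA guanine methyltransferase (MSTRG.1865), with counts of 239, 14 and 31 for LM and 70, 244 and 222 for LS, and with a log2 FC of -0.96 (adjusted p = 0.676 from edgeR).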

How the data were processed

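Root RNA of 3 LM and 3 LS libraries was poly(A)-enriched and sequenced as paired-end reads. The authors used bbduk for trimming, Trinity for one assembly of all libraries, HISAT2 2.0.4 for alignment, StringTie 1.3.5 for transcripts and HTSeq for counting (versions from the submitters' processing notes). The values deposited for each library are whole-number counts, not normalized, of uniquely aligned reads for 100005 genes. The strand setting of the counting is not given in the sources used here. The 5 rows that name no gene were left out. They hold 68.3% to 72.8% of the sum over all rows of a library, which is not a share of its reads. Most of it lies in the row for several alignments, so the values lack reads that aligned to several places.

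Descriptions, taxa and Trinity genes came from the readable rows of the study's plant gene table, and library sizes from its totals of reads on plant transcripts. No reference genome or sequence was used. Tests ran in R 4.3.3 with edgeR 4.0.16 (TMM factors, filterByExpr with a minimum count of 10 and a minimum total count of 15, quasi-likelihood test, threshold of 0.05). DESeq2 1.42.0 (without that filter) and limma 3.58.1 served for alternatives. Confidence intervals of log2 FC used the standard error and the degrees of freedom of that test. Scripts were tested on simulated data. All 11 members are named, of each other list the largest rise and fall, and any gene with an adjusted p under 0.05. Members, lists and tests were chosen with earlier results of these data known. The log2 FC values given for MSTRG.1106, MSTRG.1712, MSTRG.2046 and MSTRG.2048 come from a fit without the filter.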

Additional observations from a re-analysis of the deposited data

How the results depend on the processing

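Under each alternative and with each library left out, 0 of the members were called. The log2 FC of S29 (MSTRG.1107, 0.27 to 0.75) and L22 (MSTRG.1714, 0.50 to 0.97, and 1.14 for the sum with MSTRG.1712) kept its direction in 17 of 17 alternatives. Among the alternative values of the 7 members tested, 110 kept and 9 changed their sign. MSTRG.268 was at -0.066 with the sum of gene counts as library sizes and no TMM factors and at -0.16 in the fit of all genes, where MSTRG.1450 was at -0.045. Summed by Trinity gene, the eIF3F genes (MSTRG.1451 alone was negative) were at 0.18 and the L4 genes (MSTRG.2047 alone was positive) at -0.093. Leaving out single libraries gave a log2 FC from -0.14 to 0.24 for MSTRG.268, from -0.086 to 0.42 for MSTRG.1450, from -0.23 to 0.072 for MSTRG.1451 and from -0.23 to 0.18 for MSTRG.1525. Sums by Trinity gene, an alternative partly added after the data were seen, ranged from -0.14 to 0.26 for L24 (-0.066 with gene count sums alone), from -0.27 to 0.29 for L4, from -0.093 to 0.42 for eIF3F and from -0.23 to 0.19 for glutamate-tRNA ligase, and the share of MSTRG.2048 (LM minus LS) from -1.34 to 2.21 percentage points. The cause was not tested.

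The number of members higher in LM was 8 of 11 without the filter on low counts, which tests more genes, and 3 of 7 in the fit of all genes. With a library left out it ran from 3 of 7 (without LS2) to 7 of 8 (without LS6, where MSTRG.1106 also passed the filter). Members with an unadjusted p under 0.05 numbered 1 of 11 without the filter (MSTRG.1712, against 156 of 1159 listed plant genes), 1 of 6 after summing (105 of 650) and 0 to 2 with a library left out. They were 2 of 8 without LM3 (MSTRG.1107 and MSTRG.1714, against 90 of 755) and 1 of 8 without LS6 (MSTRG.1106, against 95 of 767). The listed plant genes called numbered 74 of 1137 with DESeq2 and 33 of 719 with the likelihood ratio test. They numbered 4 of 654 when all libraries of LM or of LS had to reach 10 counts, and 4 in the fit of all genes. With sums of gene counts and no TMM factors the median log2 FC of all tested genes fell to -0.15.

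With a replicate block, members with an unadjusted p under 0.05 numbered 1 of 7 (MSTRG.1714, log2 FC 0.78, adjusted p = 0.310 from edgeR), against 101 of 719 listed plant genes, and at an adjusted p under 0.05 both counts were 0. The numbers of the labels were checked by correlations between LM and LS libraries across 719 genes. For these, the mean of each gene in its group was first subtracted from its log2 CPM. On these remainders, same-numbered libraries had correlations of -0.056, 0.16 and 0.14. Libraries of LM and LS with different numbers had correlations from -0.23 to 0.099. So few libraries cannot decide whether the numbers pair them. With 3 libraries a group, the narrowest interval (MSTRG.1525) still allowed 0.604 to 1.52 times the LS level.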

Other observations

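The division of counts seen for L22 in LM6 and for L4 in LS6 was looked for in all listed plant genes, with limits set after those values had been seen. Of 156 Trinity genes with several listed genes and at least 30 counts in every library, 8 (5.13%) had a gene whose share in 1 library lay 40 percentage points or more from its share in every other library. That library was LM4 for 4 Trinity genes, LM6 for 2 and LS6 for 2. The 8 hold the L22 and L4 genes, a COP9 signalosome subunit (MSTRG.1243, in LM4, 96.6 percentage points) and the chloroplast import receptor Toc34 (MSTRG.1595, in LS6, 67.5 percentage points). Among 662 listed plant genes with at least 100 counts in all libraries together, 13 (1.96%) had over 90% of their summed CPM in 1 library. That library was LM4 for 5 genes, LS3 for 4, LM6 for 2, LM3 for 1 and LS6 for 1. The 2 in LM6 were the second L22 gene (MSTRG.1712, 96.8%) and MSTRG.2567 (98.1%).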
